A study of Equus caballus with 33 samples.

Results

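The HOX genes were examined in articular cartilage explants of the horse. Members were all probe sets of the array that the platform annotation pairs with a single symbol made of HOX, a cluster letter from A to D and a number. This gave 31 probe sets for 31 genes, of 16661 genes with a probe set of their own and 25923 probe sets in all. The HOXA cluster was represented by 7 genes, and the HOXB, HOXC and HOXD clusters by 8 each. The HOXA members ended at HOXA11, and HOXA13 was not among them.

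Explants were cut after death from the distal end of the third metacarpal bone in 3 horses whose joints showed no disease. After 48 h in medium they were cultured with 10 ng/mL recombinant equine interleukin-1β (IL-1β), an inflammatory cytokine, or without it. Stimulated explants were harvested on day 3 and then every 6 days up to day 27 (15 arrays), and unstimulated controls at those times and at day 0 (18 arrays), with 3 arrays per group and 1 array per replicate number. Cells were released with trypsin and collagenase from 2 pooled explants per sample, and 2 ng of RNA were amplified. Arrays that share a replicate number were read as 1 experiment, so that arrays of different days are not independent, and the p-values measure the spread between arrays.

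HOX genes encode homeodomain transcription factors that give cells their position along the body axes. They lie in 4 clusters, and within a cluster the order of the genes follows the order in which they act from head to tail and, in the HOXA and HOXD clusters, from shoulder to digit. In the mouse, the highest-numbered HOXA and HOXD genes pattern the limb and its skeleton, and HOX expression persists in adult connective tissue cells as a record of anatomical site.

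Values are log2 expression values as deposited. The array of control explants at day 27, replicate 3, had the lowest mean correlation with the other arrays of its group (0.9626) and stood apart on the second principal component, and results that change without it are given both ways. The medians of the 33 arrays lay between 5.16 and 5.38. Of the 10 chondrocyte markers (such as ACAN, the gene of aggrecan, and HAPLN1, which encodes the link protein), 8 lay above the signal threshold defined next, as did 3 of 8 synovial and fibroblast, 3 of 5 osteoblast and 2 of 7 macrophage and osteoclast markers. Of the lymphocyte, endothelial and red cell markers, 0 of 5, 0 of 5 and 0 of 3 did.

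Signal was concentrated in the HOXA and HOXD clusters. A probe set was taken to have signal where its mean over the 33 arrays exceeded 5.99, the 95th percentile of the means of 44 genes of unrelated tissues such as retina, pancreas and testis. By this rule 7 of 31 HOX genes had signal, 3 of 7 in HOXA and 4 of 8 in HOXD, against 0 of 8 in HOXB and 0 of 8 in HOXC. Over all probe sets with a single symbol, 51.5% exceeded the threshold. The brightness of a probe set depends on its probes, so that the values rank no HOX gene above another in RNA amount.

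HOXA7, a gene of the trunk-patterning middle part of its cluster, had values of 7.51 to 8.87 and lay above the threshold on 33 of 33 arrays. HOXA10 (6.09 to 7.11), HOXD10 (7.68 to 9.01) and HOXD11 (7.32 to 8.77) were also above it on every array. HOXA10 and HOXD10 act in the proximal limb of the mouse and HOXD11 in its forearm. HOXA6 and HOXD13 were above it on 28 of 33 arrays each, and HOXD8 on 19. HOXD13 is the gene of the digits at the end of its cluster, while HOXA6 and HOXD8 belong to the middle parts of theirs.

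The threshold fell in a crowded range. HOXD8 lay just inside, with a mean of 6.04, and HOXA11, the HOXA partner of HOXD11 in the forearm, just outside, with a mean of 5.97 and 14 of 33 arrays above. With a threshold computed on the 3 control arrays of day 0, HOXA11 had signal as well (8 of 31). Only HOXA7, HOXD10 and HOXD11 exceeded the highest mean of any gene of unrelated tissues, which was 7.82 for ALB.

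In the HOXB cluster the means ran from 3.21 for HOXB3 to 5.65 for HOXB1, a hindbrain gene in the mouse embryo. In the HOXC cluster they ran from 2.62 for HOXC4 to 5.38 for HOXC13, a gene of hair and nails. HOXC10 and HOXC11, which mark the hindlimb in the mouse, had means of 4.66 and 3.49. The remaining HOXA and HOXD genes below the threshold were HOXA2, HOXA5, HOXA9, HOXD1, HOXD3, HOXD9 and HOXD12, with means of 4.39, 5.00, 4.06, 3.31, 4.93, 5.31 and 5.12.

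**Figure D1:**
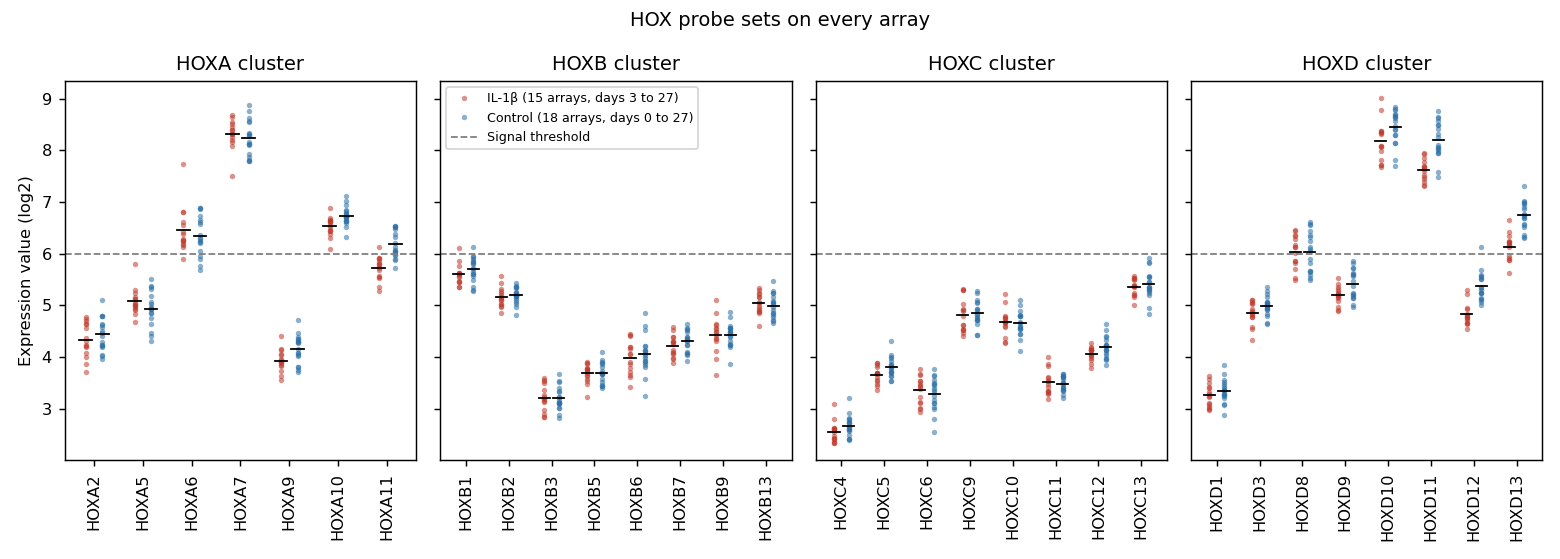
Expression value (log2, vertical axis) of each HOX probe set by cluster and gene (horizontal axis), with 1 point per array for stimulated explants (red, 15 arrays) and controls (blue, 18 arrays), black bars for the means and a dashed line for the signal threshold of 5.99. All points of the HOXC cluster lie below the line, in HOXB only HOXB1 crosses it on 2 arrays, and HOXA7, HOXA10, HOXD10 and HOXD11 lie above it throughout.

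Genes of limb identity were also read, of which TBX4, PITX1 and EVX2 were named after their values were seen. Probe sets differ in brightness, so that these values are no check of the site. TBX5, the T-box factor of the forelimb, had a mean over all arrays of 7.44, above the threshold and below that of ALB (7.82). TBX4 and PITX1, which specify the hindlimb, had means of 4.59 and 3.32 and lay below it. EVX2, the homeobox gene next to HOXD13 at the end of the HOXD cluster, had a mean of 6.40.

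The main comparison asks how stimulated explants differed from controls over days 3 to 27. HOX genes at the limb-patterning ends of the HOXA and HOXD clusters were lower in stimulated explants. Averaged over the 5 days, 7 of 31 HOX genes were called lower than controls and 0 higher: HOXD9, HOXD10, HOXD11, HOXD12, HOXD13, HOXA10 and HOXA11. For stimulated against control explants, fell and rose mean lower and higher than same-day controls, not a change from day 0. Differences are stimulated minus control on the log2 scale, ± the standard error that limma estimated from all 33 arrays, and a call is a Benjamini-Hochberg adjusted p under 0.05 over all probe sets. Of all probe sets 30.8% were called, 15.3% lower and 15.6% higher, against 22.6% of the HOX genes, all lower, so that the number of HOX calls as such was not above the background. Of the 44 genes of unrelated tissues 20.5% were called, 18.2% lower and 2.27% higher. Of the 24 HOX genes below the signal threshold 12.5% were called, all lower. The median difference over the 31 HOX genes was -0.07, and over all probe sets -0.04. In bulk tissue, fewer cells of a type and less RNA per cell cannot be told apart.

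HOXD13, the digit gene, had a lowest value of 5.62, a median of 6.18 and a highest value of 6.66 in 15 stimulated arrays, against 6.30, 6.77 and 7.31 in 15 control arrays of days 3 to 27. The ranges overlapped between 6.30 and 6.66. Set against the control of its own day and replicate number, the stimulated explant was the lower in 14 of 15 pairs. The difference was -0.66 ± 0.08 (limma adjusted p = 1.47e-07), or 0.635 of the control level. Within replicate numbers 1, 2 and 3 it was -0.55, -0.79 and -0.62.

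HOXD11, a gene of the mouse forearm, ranged from 7.32 through a median of 7.64 to 7.95 with IL-1β, against 7.57, 8.32 and 8.77 in controls. It was lower in the stimulated explant in 15 of 15 pairs. Its difference was -0.66 ± 0.10 (limma adjusted p = 2.98e-06), and within the 3 replicate numbers -0.66, -0.73 and -0.59. HOXA11, its partner in the HOXA cluster, ranged from 5.28 through 5.75 to 6.13 with IL-1β, against 5.72, 6.22 and 6.54 in controls. The difference was -0.51 ± 0.08 (limma adjusted p = 2.31e-05), with the stimulated value lower in 14 of 15 pairs.

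HOXD12, which lies between HOXD11 and HOXD13 and acts with them in the distal limb, was below the signal threshold on all arrays but 1. It ranged from 4.54 through 4.78 to 5.30 with IL-1β, against 5.01, 5.35 and 6.12 in controls. The difference was -0.59 ± 0.07 (limma adjusted p = 4.2e-07), lower in 14 of 15 pairs, and RMA values near the low end can understate a fold. The calls of HOXD11, HOXD12, HOXD13 and HOXA11 held under every alternative in which the gene was tested.

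The other 3 calls were smaller and depended on single replicates. HOXD10 ranged from 7.68 through 8.08 to 9.01 with IL-1β, against 8.13, 8.63 and 8.83 in controls, and the highest value of all was in a stimulated explant. Its difference was -0.37 ± 0.10 (limma adjusted p = 0.007), but the 3 replicate numbers gave 0.03, -0.40 and -0.73. Without replicate 3 the difference was -0.18 (adjusted p = 0.274), and without replicate 2 it was -0.35 (adjusted p = 0.127).

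HOXD9, a proximal limb gene below the threshold, had a median of 5.21 with IL-1β, against 5.47 in controls, with overlapping ranges. The difference was -0.24 ± 0.08 (limma adjusted p = 0.0323), and the call was lost without control day 27 replicate 3 (adjusted p = 0.0578), without replicate 2 (adjusted p = 0.0946), without replicate 3 (-0.15, adjusted p = 0.378), after quantile normalisation once more (adjusted p = 0.103) and with arrays centred on their medians (adjusted p = 0.119). HOXA10, a gene of the proximal limb, had a median of 6.56 with IL-1β, against 6.74 in controls, and a difference of -0.22 ± 0.07 (limma adjusted p = 0.0214). Without replicate 2 its difference was -0.15 (adjusted p = 0.367), and with arrays centred on their medians -0.17 (adjusted p = 0.104).

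Among the HOX genes with signal, 3 showed no call in this comparison. HOXA7 differed by 0.06, with a 95% interval of -0.16 to 0.28 (adjusted p = 0.709). HOXA6 differed by 0.08, with an interval of -0.23 to 0.38, and HOXD8 by 0.09, with an interval of -0.13 to 0.31. For HOXA7, HOXA6 and HOXD8 the interval thus leaves out a fall of the size seen for HOXD13. Stimulated and control values of HOXA7 overlapped widely, from 7.51 to 8.68 with IL-1β and from 7.79 to 8.87 in controls.

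HOXA9, the neighbour of HOXA10, missed the threshold (-0.24 ± 0.10, adjusted p = 0.0644). HOXC5 differed by -0.18 ± 0.07 (adjusted p = 0.051), and was called with the replicate number as a fixed block (adjusted p = 0.0497) or a random block (adjusted p = 0.044). At a mean of 3.74 it lay far below the signal threshold. The other 15 genes of HOXB and HOXC had differences from -0.15 to 0.07, and 0 of them passed.

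The differences followed the numbering of the genes within the HOXD and HOXA clusters, an ordering looked at after the values were seen. In HOXD the differences were -0.06 for HOXD1, -0.16 for HOXD3, 0.09 for HOXD8, -0.24 for HOXD9, -0.37 for HOXD10, -0.66 for HOXD11, -0.59 for HOXD12 and -0.66 for HOXD13. In HOXA they were -0.17 for HOXA2, 0.11 for HOXA5, 0.08 for HOXA6, 0.06 for HOXA7, -0.24 for HOXA9, -0.22 for HOXA10 and -0.51 for HOXA11. Spearman's rho between the number of the gene and its difference was -0.857 over the 8 HOXD genes and -0.75 over the 7 HOXA genes, against 0.5 in HOXB and 0.262 in HOXC with 8 genes each. The genes share the same arrays, and all of HOXB and HOXC lay below the signal threshold, so that rho is a description. Of the 8 HOXA and HOXD genes numbered 9 to 13, 4 had signal and 7 were called lower, with a median of -0.44. Of all probe sets 15.3% were called lower. The calls of HOXD9, HOXD10 and HOXA10 were each lost without replicate 2. Of the 7 HOXA and HOXD genes numbered 1 to 8, 3 had signal and 0 were called, with a median of 0.06.

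**Figure D2:**
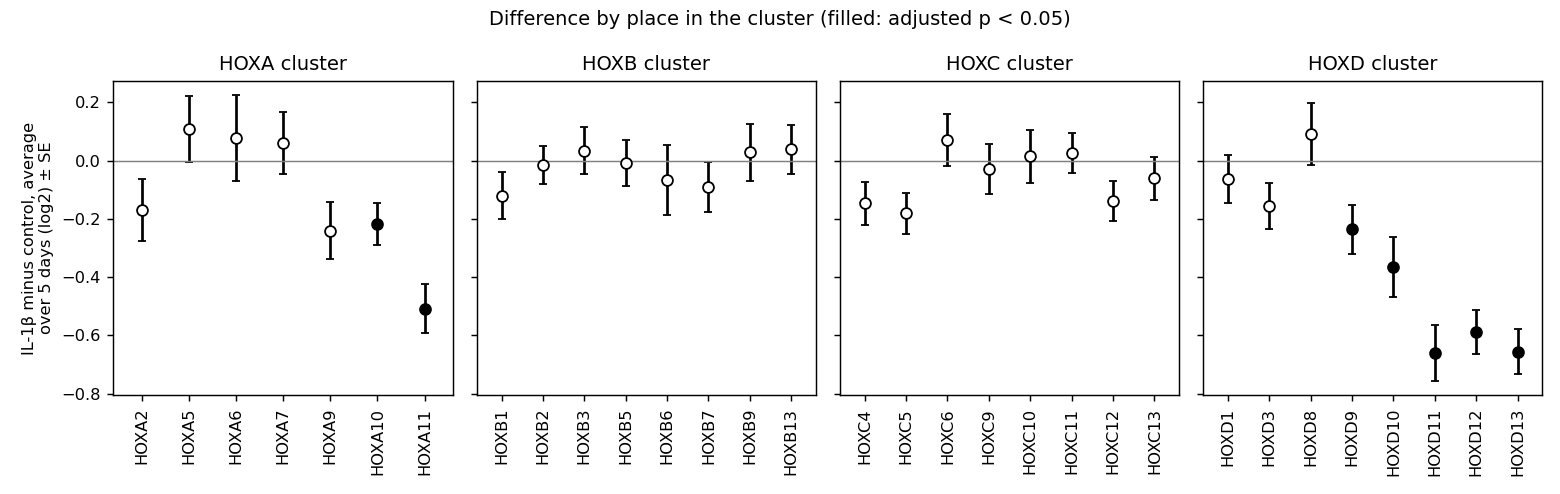
Difference between stimulated and control explants averaged over 5 days (log2, vertical axis) with its standard error, for each HOX gene in the order of its cluster (horizontal axis), with filled points for an adjusted p under 0.05. The filled points are HOXA10, HOXA11 and HOXD9 to HOXD13, and they lie at the right-hand ends of the HOXA and HOXD panels.

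Markers of cell types were read in the same comparison, in which 30.8% of all probe sets were called (15.6% higher, 15.3% lower). Chondrocyte markers were called lower in 6 of 10 cases and higher in 0, and their summed linear signal was 3380 to 12800 in stimulated arrays, against 16700 to 21900 in control arrays of days 3 to 27. Macrophage and osteoclast markers were called higher in 2 of 7 cases, CTSK and CD68, with the other 5 below the signal threshold. Their sums were 2750 to 9890 with IL-1β, against 1790 to 4000 in controls. Most of this signal was that of CTSK, which averaged 12.52 with IL-1β, against 11.05 in controls. The means of CD68 were 8.75 and 8.17. Endothelial markers were called lower in 3 of 5 cases, all below the threshold, with sums of 94.1 to 202 with IL-1β, against 148 to 344 in controls. Synovial and fibroblast markers were called higher in 3 of 8 and lower in 2 (sums of 1720 to 13600, against 12000 to 13800), with DCN the brightest of them. Osteoblast markers were called higher in 1 of 5 and lower in 2 (231 to 541, against 216 to 466). Lymphocyte markers were called lower in 1 of 5 (84.7 to 133, against 96.8 to 151) and red cell markers in 0 of 3 (41.5 to 57.8, against 42.9 to 66.9). The shares called were 60% to 62.5% for chondrocyte, endothelial, synovial and fibroblast, and osteoblast markers, on few genes. For macrophage and osteoclast, lymphocyte and red cell markers they were 28.6%, 20% and 0%, below that of all probe sets. The part of these marker differences in the HOX differences was not tested.

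At single days the calls fell between days 9 and 27. At day 3, 0 of 31 HOX genes were called by limma (2 at an unadjusted p under 0.05), where 3.32% of all probe sets were (1.77% higher, 1.54% lower). The differences at day 3 were -0.41 for HOXD13 (adjusted p = 0.3) and -0.40 for HOXD11 (adjusted p = 0.506). At day 9, 2 HOX genes fell, at day 15 and at day 21 4 each, and at day 27 2, with 0 rising at any day. Of all probe sets 7.54% were called on day 9 (3.91% higher, 3.63% lower) and 12.7% on day 15 (6.79% higher, 5.88% lower). On day 21 it was 12.1% (6.11% higher, 6.02% lower), and on day 27 14.8% (8.25% higher, 6.54% lower). The share of HOX genes called, all lower, was 6.45%, 12.9%, 12.9% and 6.45% at these 4 days, on 2 to 4 genes. It was close to the share of all probe sets called in either direction at days 9, 15 and 21, and below it at day 27. Against the share called lower alone, it was above at days 9, 15 and 21 and close at day 27.

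HOXD13 at day 9 had values of 5.92, 5.96 and 5.88 in stimulated explants, against 6.87, 6.999 and 6.68 in controls. The groups lay apart by more than either group's range, and the difference was -0.93 ± 0.18 (limma adjusted p = 0.000669). At day 21 it had values of 5.62, 6.17 and 5.87 with IL-1β, against 6.68, 6.98 and 6.73 without, a difference of -0.91 ± 0.18 (limma adjusted p = 0.000581). At day 15 the difference was -0.82 ± 0.18 (limma adjusted p = 0.00186). The call at day 9 narrowly missed the threshold without replicate 2 (adjusted p = 0.053), and that at day 15 without replicate 3 (adjusted p = 0.0524).

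At day 27 HOXD13 had values of 6.66, 6.34 and 6.14 in stimulated explants, against 6.55, 6.90 and 6.30 in controls. The groups overlapped, and the difference of -0.21 ± 0.18 did not pass (adjusted p = 0.508).

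HOXD12 was the HOX gene called at 4 of 5 days. At day 9 its values were 4.75, 4.95 and 4.65 with IL-1β, against 5.55, 5.50 and 5.69 in controls, a difference of -0.79 ± 0.17 (limma adjusted p = 0.00222). At day 21 they were 5.30, 4.76 and 4.64 with IL-1β, against 6.12, 5.51 and 5.56 in controls (-0.83 ± 0.17, limma adjusted p = 0.000928). The 2 groups did not overlap at either day. Differences at days 15 and 27 were -0.62 (adjusted p = 0.0135) and -0.56 (adjusted p = 0.0213). The call at day 21 held under every alternative tested. That at day 9 was lost without replicate 2 (adjusted p = 0.0561) or 3 (0.0925), that at day 15 without replicate 1 (0.0514), 2 (0.216) or 3 (0.0626), and that at day 27 without replicate 2 (0.0994) or 3 (0.335). Quantile normalisation once more and centring of the arrays also ended the calls at day 15 (0.0544 and 0.0519) and at day 27 (0.103 and 0.106).

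HOXD11 was called at day 15, with values of 7.95, 7.48 and 7.68 in stimulated explants, against 8.77, 8.25 and 8.48 in controls. At day 21 it had the largest fall of any HOX gene at any day, -1.04 ± 0.21 (limma adjusted p = 0.0011), with values of 7.92, 7.33 and 7.32, against 8.56, 8.64 and 8.49. The groups did not overlap at either of these days. The call at day 15 was lost without replicate 1 (adjusted p = 0.0589) or 2 (0.162), and that at day 21 without replicate 2 (-0.90, adjusted p = 0.103). Its difference of -0.64 at day 9 missed the threshold (adjusted p = 0.0679), and passed it once the replicate number was a fixed block (adjusted p = 0.0139). At day 27 it was -0.43 (adjusted p = 0.195), and was called without control replicate 3 (-0.70, adjusted p = 0.0316) and after quantile normalisation once more (-0.56, adjusted p = 0.0432).

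HOXA11 was called at day 21, with values of 5.57, 5.89 and 5.92 in stimulated explants, against 6.37, 6.54 and 6.47 in controls (-0.67 ± 0.19, limma adjusted p = 0.0177). This call was lost without replicate 1 (adjusted p = 0.182) or 2 (0.131). Its call at day 27 (-0.64, adjusted p = 0.0206) was lost without replicate 1 (0.113), 2 (0.057) or 3 (0.228) and with centred arrays (0.0698). Without control replicate 3 alone it was lost as well (-0.55, adjusted p = 0.103), as was that of HOXD12 (-0.45, adjusted p = 0.132). HOXC4, a cervical and thoracic gene, was called at day 15 (-0.50 ± 0.17, limma adjusted p = 0.0456). Its values there were 2.47, 2.42 and 2.34 with IL-1β, against 3.21, 2.81 and 2.72 in controls, far below the signal threshold. Leaving out replicate 1, 2 or 3 ended this call (adjusted p = 0.239, 0.13 and 0.189), as did quantile normalisation once more (0.0958) and centring (0.112).

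**Figure D3:**
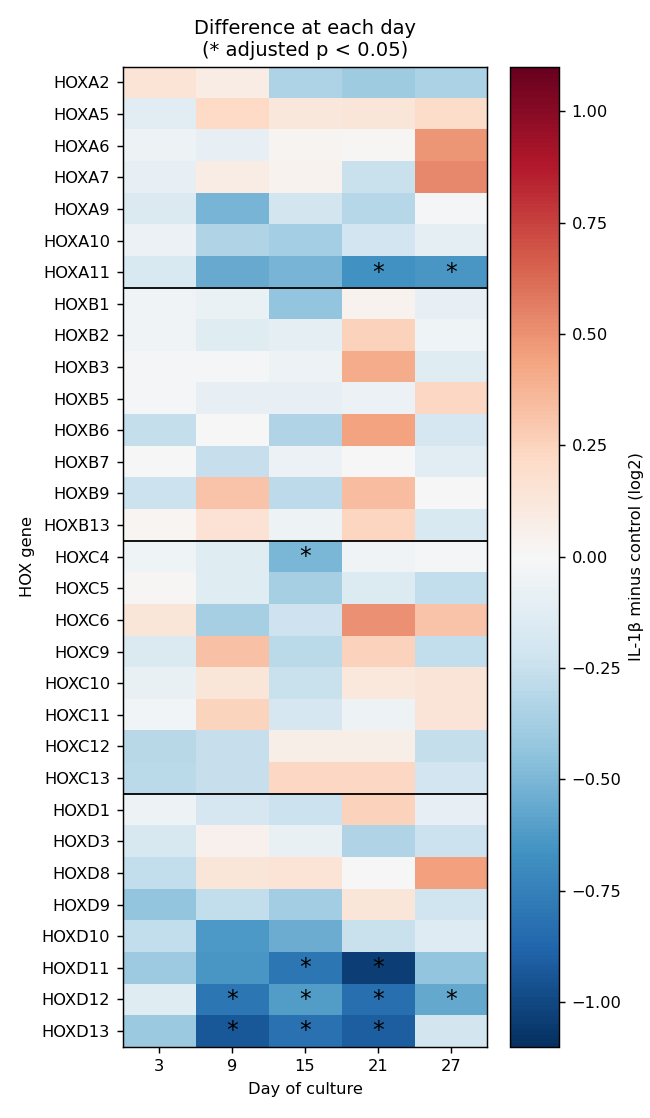
Difference between stimulated and control explants (log2, colour) for each of 31 HOX genes (vertical axis) at each day (horizontal axis), with blue for lower and red for higher in stimulated explants and a star for an adjusted p under 0.05. The stars lie in the rows of HOXA11, HOXC4, HOXD11, HOXD12 and HOXD13, with 0 at day 3.

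Whether the difference itself varied between days was tested with a moderated F-test. It called 0 of 31 HOX genes (limma, 3 at an unadjusted p under 0.05), where 0.409% of all probe sets were called. HOXD13 came nearest (limma adjusted p = 0.445), so that a change of the HOX differences with time was not shown.

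Control explants alone were followed from day 0 to day 27. The F-test over the 6 times called 0 of 31 HOX genes (limma, 6 at an unadjusted p under 0.05), against 4.66% of all probe sets. HOXD12 was nearest (adjusted p = 0.0845), and HOXD11 (adjusted p = 0.15) was called with the replicate number as a fixed block (adjusted p = 0.0261) and after quantile normalisation once more (adjusted p = 0.0334). Between days 0 and 3, 0 HOX genes were called (limma, 1 at an unadjusted p under 0.05), against 0.401% of all probe sets (0.108% higher, 0.293% lower).

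Between day 0 and day 27 HOXD10 alone rose among the HOX genes, where 5.44% of all probe sets were called (2.03% higher, 3.41% lower). Its control values were 8.63, 8.71 and 8.78 at day 27, against 8.31, 7.82 and 7.69 at day 0, without overlap. The difference was 0.77 ± 0.23 (limma adjusted p = 0.0481), at the threshold, and was not called without control day 27 replicate 3 (0.73, adjusted p = 0.158), without replicate 2 (adjusted p = 0.378) or 3 (adjusted p = 0.338), or with arrays centred on their medians (0.68, adjusted p = 0.109). HOXD8, its near neighbour, had values of 5.65, 6.10 and 5.52 at day 27, against 6.31, 6.55 and 6.57 at day 0. These did not overlap either, and the difference of -0.72 ± 0.24 missed the threshold (adjusted p = 0.0778), which it passed among probe sets above the median signal (adjusted p = 0.0442).

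The time courses show where the gap between stimulated and control explants lay relative to day 0. With IL-1β, HOXD11 averaged 7.61 ± 0.08 on day 3, 7.58 ± 0.13 on day 9, 7.70 ± 0.23 on day 15, 7.52 ± 0.35 on day 21 and 7.67 ± 0.25 on day 27 (mean ± SD of 3 arrays). Control means were 7.83 ± 0.31 before stimulation (day 0), 8.01 ± 0.05 on day 3, 8.22 ± 0.35 on day 9, 8.50 ± 0.26 on day 15, 8.56 ± 0.08 on day 21 and 8.10 ± 0.46 on day 27. All 15 stimulated values of HOXD11, from 7.32 to 7.95, lay below the highest of the 3 values of day 0 (7.48 to 8.04), a range that they overlapped. Control means at days 9 to 27 lay above all 3 values of day 0. A difference from day 0 was tested in controls at days 3 and 27 and not in stimulated explants.

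HOXD13 averaged 5.92 ± 0.04 on day 9 and 5.89 ± 0.27 on day 21 with IL-1β, against 6.85 ± 0.16 and 6.80 ± 0.16 in controls of those days (SD of 3 arrays). The control mean at day 0 was 6.47 ± 0.13, and all 3 stimulated values on each of these 2 days lay below all 3 values of day 0, which were 6.58, 6.51 and 6.33. At day 27 the stimulated values of 6.66, 6.34 and 6.14 overlapped those of day 0. HOXD12 had stimulated means of 4.94 ± 0.24, 4.78 ± 0.15, 4.70 ± 0.15, 4.90 ± 0.35 and 4.80 ± 0.14 on days 3, 9, 15, 21 and 27, and a control mean of 5.18 ± 0.11 on day 0. Its stimulated values lay below all 3 of day 0 (5.10 to 5.30) on days 9, 15 and 27, whereas 1 value on day 3 (5.21) and 1 on day 21 (5.30) lay among them.

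**Figure D4:**
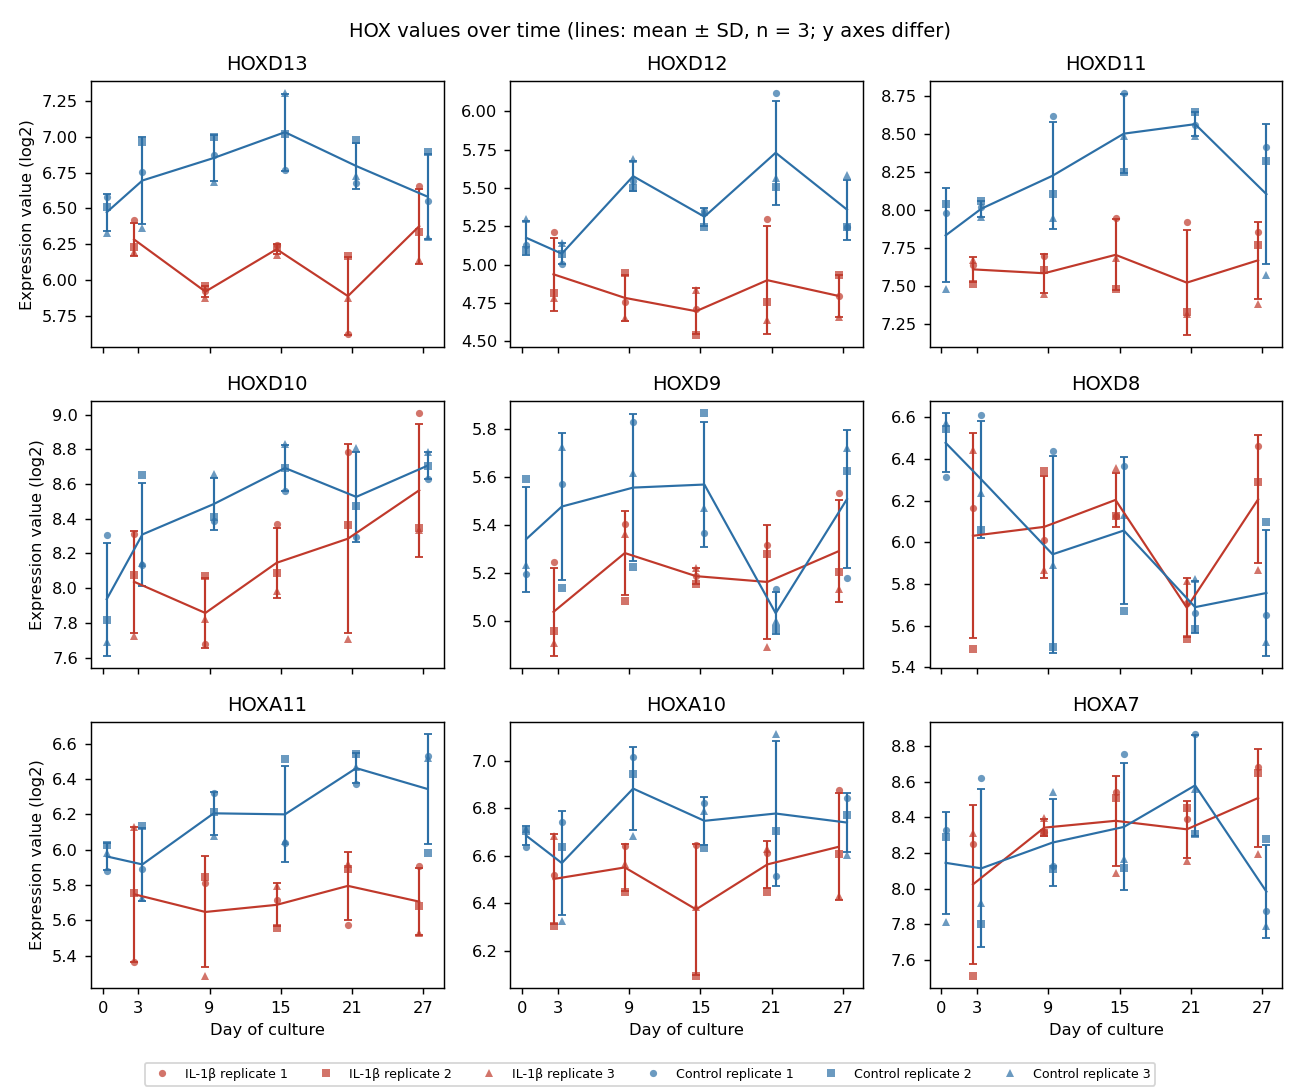
Expression value (log2, vertical axes, which differ in range) against day of culture (horizontal axis) for 9 HOX genes, with a marker shape per replicate number and lines for the mean and SD of 3 arrays, in stimulated (red) and control (blue) explants. The lines of HOXD11, HOXD12, HOXD13 and HOXA11 stay apart from day 9 to day 21, while those of HOXA7 and HOXD8 cross.

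Within stimulated explants, the F-test over days 3 to 27 called 0 of 31 HOX genes (limma, 3 at an unadjusted p under 0.05), against 0.903% of all probe sets. Day 27 against day 3 gave 0 calls (limma, 4 at an unadjusted p under 0.05), against 3.28% of all probe sets (1.47% higher, 1.81% lower). The largest difference was that of HOXA6, at 0.72 (adjusted p = 0.29). Its stimulated values at day 27 were 7.73, 6.81 and 6.29, so that replicate 1 held much of it.

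Replicate numbers differed little in HOX levels. Over all days and both kinds of culture, the means of the 3 numbers lay within 0.36 of each other for each of the 31 genes. The widest range was that of HOXD11 (8.13, 7.92 and 7.77 for numbers 1, 2 and 3), and it was smaller than its difference between stimulated and control explants. For other genes, among them HOXA6, HOXA7 and HOXD8, the range was larger than that difference.

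HOX proteins bind DNA together with the PBC and MEIS class cofactors, of which 7 of 9 listed were measured. Averaged over days, 2 rose, 1 fell and 4 did not pass, so that 42.9% were called, against 30.8% of all probe sets, on few genes. PKNOX1 (also called PREP1), a partner of PBX proteins, had stimulated values of 7.61 to 8.37, against 5.65 to 7.58 in controls, which did not overlap, and rose by 1.16 ± 0.13 (limma adjusted p = 7.36e-08). PKNOX2, with a mean of 5.86 below the signal threshold, fell by 0.41 ± 0.11 (adjusted p = 0.00404). This call was lost without replicate 1 (adjusted p = 0.0591) or 2 (adjusted p = 0.0749). In controls PKNOX2 was 0.82 higher on day 27 than on day 0 (adjusted p = 0.0421), a call lost without replicate 1 (0.351) or 2 (0.366) and with either rescaling (0.0792 and 0.0786). PBX3 rose by 0.24 ± 0.09 (adjusted p = 0.0458) at the threshold, and was not called without replicate 1, 2 or 3 (adjusted p = 0.0586, 0.245 and 0.155), without control day 27 replicate 3 (0.0752) or after quantile normalisation once more (0.0704). PBX2 differed by -0.18 (adjusted p = 0.0957), and was called lower without control day 27 replicate 3 (adjusted p = 0.0425), without replicate 3 (0.0324) and after quantile normalisation once more (0.0109). MEIS1, MEIS2 and MEIS3 all had means below the signal threshold and were not called.

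Of 24 limb patterning factors measured, 9 fell, 2 rose and 13 did not pass. Of these 24 genes, 9 had signal. The share that fell was 37.5%, against 15.3% of all probe sets, and the share that rose 8.33%, against 15.6%. The median was -0.15, against -0.04 over all probe sets. DLX5, a homeobox gene of limb ectoderm and skeletal cells, averaged 5.91 with IL-1β, against 8.26 in controls, and fell by 2.35 ± 0.09 (limma adjusted p = 1.83e-17). The forelimb factor gene TBX5 had values of 6.40 to 7.08, against 7.09 to 8.80, and fell by 1.58 ± 0.08 (adjusted p = 1.64e-14). HAND2, which acts upstream of sonic hedgehog in the limb bud, had values of 6.85 to 7.25, against 7.62 to 8.51, and fell by 1.02 ± 0.09 (adjusted p = 7.58e-10). For DLX5, TBX5 and HAND2 the stimulated and control ranges did not overlap. Relative to day 0 the 3 genes differed. TBX5 averaged 6.71 with IL-1β, against 8.29 in controls of days 3 to 27, and its day 0 values of 6.53 to 7.07 lay within the stimulated range. In controls TBX5 rose by 1.65 ± 0.18 between day 0 and day 27 (limma adjusted p = 3.7e-06). DLX5 also rose in controls, by 1.30 ± 0.20 (limma adjusted p = 0.000143), while all its stimulated values, of at most 6.39, lay below its day 0 values of 6.89 to 7.35. HAND2 had day 0 values of 7.36 to 8.24, above all its stimulated values, and its control difference of 0.27 between days 27 and 0 was not called (adjusted p = 0.535). TBX3, another limb bud factor, rose by 1.57 ± 0.13 (adjusted p = 3.37e-10). EVX2, beside HOXD13, differed by -0.15 ± 0.09 (adjusted p = 0.259).

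**Figure D5:**
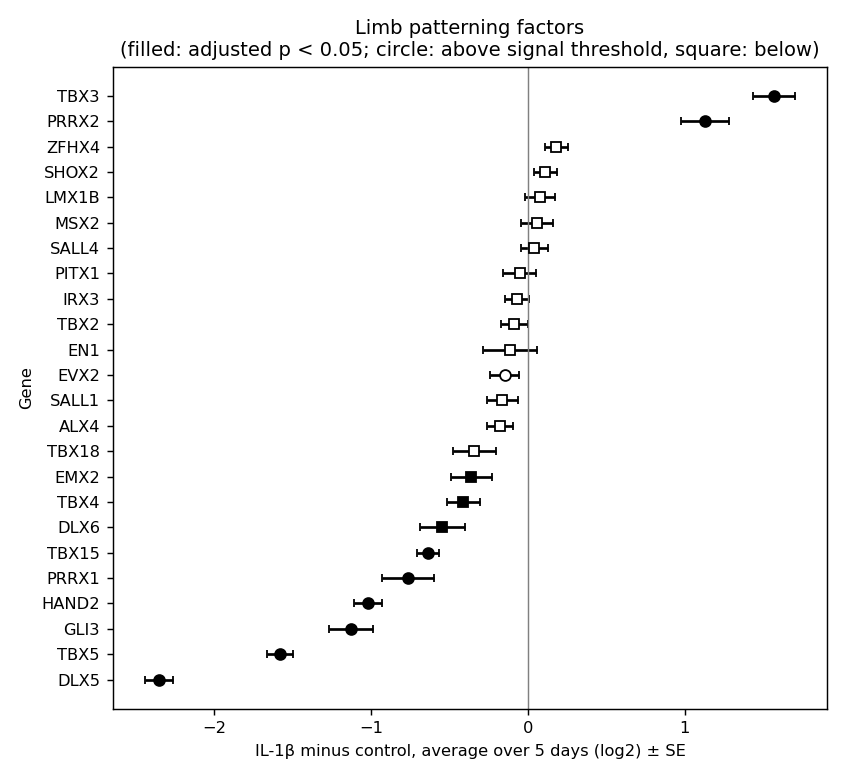
Difference between stimulated and control explants averaged over 5 days (log2, horizontal axis) with its standard error, for 24 limb patterning factors (vertical axis), filled where the adjusted p is under 0.05, with circles above and squares below the signal threshold. DLX5 at -2.35 and TBX5 at -1.58 lie farthest to the left, TBX3 at 1.57 and PRRX2 at 1.13 farthest to the right.

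Polycomb proteins keep HOX clusters silent and trithorax proteins keep them active. Of 19 measured regulators of these groups, 5 rose, 1 fell and 13 did not pass, with a median of 0.09. The share called, 31.6%, was close to the 30.8% of all probe sets, so that the count is at the background, with 26.3% higher and 5.26% lower. EZH2, the methyltransferase that places the repressive mark on histone H3, had stimulated values of 6.29 to 7.39, against 5.22 to 6.16 in controls, without overlap, and rose by 1.15 ± 0.08 (limma adjusted p = 5.81e-12). PHC2, a subunit of Polycomb complexes, rose by 0.60 ± 0.07, and KDM6B, a demethylase that removes the mark, by 0.99 ± 0.17 (adjusted p = 4.88e-05). RNF2, the ubiquitin ligase of Polycomb complexes, fell by 0.76 ± 0.11 (adjusted p = 4.21e-06).

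Retinoic acid, a signal that sets HOX expression in the embryo, was represented by 17 of 17 listed genes, of which 5 rose, 6 fell and 6 did not pass. The share that rose was 29.4%, against 15.6% of all probe sets, and the share that fell 35.3%, against 15.3%. Only 7 of the 17 had signal, so that some of these calls were on probe sets below the threshold. CYP26B1, the enzyme that degrades retinoic acid in the limb, fell by 1.41 ± 0.14 (limma adjusted p = 6.38e-09). CRABP1, a retinoic acid binding protein with a mean of 5.98, just below the signal threshold, fell by 0.95 ± 0.14. The retinoid receptor gene RXRA fell by 0.74 ± 0.12. Both CYP26B1 and RXRA were higher on day 27 than on day 0 in controls, CYP26B1 by 1.15 ± 0.32 (limma adjusted p = 0.0298) and RXRA by 1.18 ± 0.27 (limma adjusted p = 0.00773). The call of CYP26B1 was lost without replicate 1 or 2 (adjusted p = 0.158 and 0.4), and that of RXRA without replicate 2 or 3 (adjusted p = 0.171 and 0.13). RXRA averaged 6.94 with IL-1β, against 7.68 in controls of days 3 to 27 and 6.74 at day 0, so that its stimulated mean did not lie below that of day 0. CYP26B1 averaged 5.57 with IL-1β, against 6.98 in controls of days 3 to 27 and 5.83 at day 0. DHRS3, a retinaldehyde reductase, rose by 0.89 ± 0.07 (adjusted p = 1.5e-10).

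HOX clusters also hold microRNA genes, and 5 of their precursors were measured. MIR196B, which lies in the HOXA cluster, had stimulated values of 4.63 to 7.22, against 5.64 to 8.12 in controls, with overlap, and fell by 0.77 ± 0.22 (limma adjusted p = 0.00957). Without replicate 2 its difference was -0.49 (adjusted p = 0.143). MIR10A and MIR10B had means of 2.57 and 2.78, below the signal threshold, and differed by -0.02 and -0.01. MIR196A and MIR615, looked up after the others, had means of 3.89 and 4.17, also below it, and differed by 0.15 (adjusted p = 0.232) and 0.10 (adjusted p = 0.498).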

How the data were processed

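Articular cartilage explants of the horse were measured on an Affymetrix array. The authors deposited log2 expression values, 1 column per array; Affymetrix Expression Console, RMA and limma are named per the submitters' processing notes, with no version or role. The log base is read from the values, which span what RMA gives on that scale, and the values were not normalised again. Gene names are those of the platform annotation, in which 16789 probe sets had 1 symbol, 343 had several and 8791 had none listed. Each of the 31 HOX symbols had 1 probe set. Probe sequences were not used here, so that hybridisation shared between related HOX genes was not assessed.

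The limma package (version 3.58.1, R version 4.3.3) was used for all fits (lmFit, eBayes), with 1 mean per group over all 33 arrays and 22 residual degrees of freedom. Tests were two-sided, with Benjamini-Hochberg adjustment across the 25923 probe sets. For the average over days, arrays of 1 replicate number counted as independent, so that its standard error does not measure the spread between replicate numbers. The number of arrays limits the precision. The fit was tested on simulated data in which arrays were independent, so that the simulation does not address correlation within replicate numbers. Genes were named by a rule: every HOX gene, and up to 4 genes per list with the smallest p in the average comparison. TBX4, PITX1, EVX2, MEIS1, MEIS2, MEIS3 and PRRX2 were named after their values were seen. The members and lists were chosen with earlier results of these data known.

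Labels give the replicate numbers, and the sample descriptions give each number 1 experiment prefix, which was read as the pairing. The median correlation of deviations from group means was 0.164 over 165 pairs of arrays of the same number and -0.0841 over 330 pairs of different numbers, and the lowest of 15 between a stimulated explant and its own control was 0.0781. The alternatives were a fixed or random block for the number, a filter on dim probe sets, 2 rescalings, a variance trend, leaving out each replicate number, and leaving out control day 27 replicate 3. For the list genes in controls between days 27 and 0 these were added after seeing the data.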

Additional observations from a re-analysis of the deposited data

How the results depend on the processing

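The averaged falls of HOXD11, HOXD12, HOXD13 and HOXA11 were called in every alternative in which they were tested, HOXD11 between -0.73 and -0.61, HOXD12 between -0.63 and -0.51, HOXD13 between -0.71 and -0.59 and HOXA11 between -0.54 and -0.46. No called value reversed its sign in the alternatives run. The number of HOX genes called on average, 7, was between 4 and 7 on leaving out a replicate, 4 without replicate 2. On leaving out a replicate, the count was 0 to 2 at day 9 (2 with all arrays), 1 at day 15 (4), 2 to 4 at day 21 (4), 0 to 1 at day 27 (2) and 0 to 1 for control day 27 against day 0 (1). At day 15 it was 2 after quantile normalisation once more and 2 with arrays centred on their medians. At day 27 it was 1 among probe sets above the median signal, a filter that kept 11 of 31 HOX genes and not HOXD12, 0 with centred arrays and 1 without control day 27 replicate 3. For control day 27 against day 0 it was 2 above the median signal, 0 with centred arrays and 0 without that array. The F-test of controls called 1 HOX gene, HOXD11, with the fixed replicate block and 1 after quantile normalisation once more, against 0. With the replicate block no other HOX call changed than those of HOXC5 on average, HOXD11 at day 9 and HOXD11 over control days. The number of HOX genes with signal was 3 above the highest gene of unrelated tissues, against 7. Over all probe sets, the count called on average was 5239 to 6583 on leaving out a replicate, against 7991, and the F-test of the difference between days called 1 to 51 on leaving out a replicate and 233 with the fixed block, against 106. For the day by day counts of all probe sets, leaving out a replicate gave 217 to 448 at day 3 (860 with all arrays), 638 to 1271 at day 9 (1954), 1293 to 2290 at day 15 (3284), 1548 to 2262 at day 21 (3144) and 1890 to 2603 at day 27 (3833). For controls it gave 271 to 441 over all days (1208, and 1838 with the fixed block), 0 to 22 for day 3 against day 0 (104, and 179 with the block) and 391 to 746 for day 27 against day 0 (1410, and 771 without control day 27 replicate 3). For stimulated explants it gave 3 to 139 over all days (234, and 465 with the block) and 20 to 600 for day 27 against day 3 (849). Leaving out a replicate leaves 2 arrays per group; the causes of the other changes were not tested. No HOX symbol had several probe sets, so that the choice of another probe set was not run. Centring arrays moved the median difference of all probe sets by 0.05. The values carry no detection call, which limits what can be said of HOX genes below the threshold.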
